A study of Mus musculus with 2 samples.

Results

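The corticotropin-releasing hormone (CRH) system and a set of glucocorticoid-responsive genes were examined in postpartum mouse brain. The members were 10 genes out of 27962 gene names on the array, namely the ligands Ucn and Ucn3, the binding protein Crhbp, the receptors Crhr1 and Crhr2, the steroid receptors Nr3c1 and Nr3c2, and the responsive genes Fkbp5, Sgk1 and Tsc22d3. They were chosen by name, every probe carrying one of these names was kept (Sgk1 is written Sgk on the array), and this gave 21 of 41174 probes. The 2 two-colour arrays carried brain RNA of female C57BL/6J dams aged 8 weeks on postpartum day 0. On both arrays, RNA of dams lacking TDAG51 (the product of Phlda1) on both alleles (TDAG51-/-, "KO" in the plots) was labelled with Cy3. On the first array, the Cy5 channel held wild-type RNA (TDAG51+/+, "WT"). On the second array, it held RNA of knockout dams that also carried a TDAG51 transgene (TDAG51-/-Tg2, "KO Tg"), so that both alleles were lacking in every sample other than the wild type. Per the study's methods, the transgene was driven by the BAI1-AP4 promoter, which is active mainly in cerebral cortex and hippocampus, and Tg2 is 1 founder line. The labels do not give the number of dams behind a sample. Each comparison rested on 1 array without a dye swap, so dye and genotype cannot be told apart and no test across animals was possible.

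CRH and the urocortins are related peptides that act on a pair of receptors coupled to the cyclic AMP pathway. The CRH-binding protein captures some of these peptides, CRH among them, before they reach a receptor. CRH from the hypothalamus drives the release of adrenocorticotropic hormone from the pituitary and, through it, of glucocorticoids from the adrenal gland. Glucocorticoids enter the brain, bind the mineralocorticoid receptor (Nr3c2) and the glucocorticoid receptor (Nr3c1), and these receptors induce genes such as Fkbp5, Sgk1 and Tsc22d3 through glucocorticoid response elements in DNA.

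Several results turned on probes of the same gene that gave different values, and these probes are printed here. Positions are those of the array design on mm7, and the exon or untranslated region behind each probe was not analysed here. The whole 60 bases are given for 4 probes and the first 30 bases for the others.
Crhr1 A_51_P229163 (chr11:104284418-104284477, plus strand, first 30 bases): cagcgacaggtggctcctgggacaactaac
Crhr1 A_52_P4910 (chr11:104282370-104282429, plus strand): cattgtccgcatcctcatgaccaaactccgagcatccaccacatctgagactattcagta
Nr3c2 A_51_P377914 (chr8:75452132-75452191, plus strand): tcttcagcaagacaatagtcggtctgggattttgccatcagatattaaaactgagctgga
Nr3c2 A_52_P378137 (chr8:75452671-75452730, plus strand): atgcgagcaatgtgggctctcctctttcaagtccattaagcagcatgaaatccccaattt
Fkbp5 A_51_P383689 (chr17:26586393-26586452, minus strand, first 30 bases): ggcattgaattagggcaaatcttaaatagt
Fkbp5 A_52_P481493 (chr17:26624510-26624569, minus strand): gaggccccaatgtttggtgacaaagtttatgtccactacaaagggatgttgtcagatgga
Sgk1 A_51_P118237 (chr10:21732425-21732484, plus strand, first 30 bases): cagttgtcagtcaaagccgttggtgttttc

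The values below are spot intensities before background correction, in scanner units, over a local background of 34.0 to 48.0 for the member spots, followed by the normalized log2 ratio of TDAG51-/- over the control. The error after ± is the scanner software's error for the spot on the log2 scale (1 spot, n = 1 array), which ranged from 0.204 to 0.762 over the members and does not cover the spread between dams. No member spot was saturated, and 18 of 21 probes were well above background in every channel by the scanner's mark. Since the knockout was measured on both arrays, its 2 Cy3 levels give a repeat, although the labels do not say whether the same RNA was used. Over 32932 probes well above background the repeat had a robust SD of 0.143 on the log2 scale. Phlda1, the targeted gene, had an intensity of 350.5 in TDAG51-/- against 7283 in TDAG51+/+. On the second array it read 44.1 in TDAG51-/- and 50.5 in TDAG51-/-Tg2, neither well above background, so that the transgene was not detected by this probe. The knockout thus read differently on both arrays for this gene, and whether the probe lies within the deleted part or within the transgene was not analysed here.

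The samples also differed in markers of brain regions. Among 15 cerebellar markers, 11 were at least 2-fold higher in TDAG51-/- than in TDAG51+/+ and 13 than in TDAG51-/-Tg2, with median log2 ratios of 2.13 and 2.05. Cbln1, a synaptic organizer of granule cells, was saturated in TDAG51-/- at 65284 on each array and read 22061 in TDAG51+/+ and 23132 in TDAG51-/-Tg2, with log2 ratios of 2.24 and 2.18 after loess and of 1.72 and 1.68 with median centring, and without normalization the ratio against TDAG51+/+ was 1.56. The summed intensity of the list was 445154 and 453748 in TDAG51-/-, 239274 in TDAG51+/+ and 230630 in TDAG51-/-Tg2. Of 12 measured hindbrain and brainstem markers, 8 and 9 were at least 2-fold higher. The summed intensities of all 14 listed were 22202 and 22524 in TDAG51-/- against 14211 in TDAG51+/+ and 18843 in TDAG51-/-Tg2. Slc17a6 alone made up most of them, at 13393 and 13380 in TDAG51-/-, 12169 in TDAG51+/+ and 16677 in TDAG51-/-Tg2. Striatal markers ran against the cerebellar and hindbrain lists. Of 10 measured, 8 were at least 2-fold lower against each control, among them Adora2a, the adenosine receptor of striatal projection neurons, at 4.96-fold and 4.44-fold lower. The summed intensity of the striatal list was 64405 and 61886 in TDAG51-/-, 233121 in TDAG51+/+ and 242130 in TDAG51-/-Tg2. Of 14 markers of cortex and hippocampus, 6 and 7 were at least 2-fold lower, and the summed intensity was 106562 and 100946 in TDAG51-/-, 260372 in TDAG51+/+ and 278555 in TDAG51-/-Tg2. The interneuron list (6 and 3 of 11 at least 2-fold lower, and 1, Calb2, at least 2-fold higher than TDAG51-/-Tg2; summed 52204 and 42249 in TDAG51-/-, 106319 and 100095 in the controls) and the hypothalamic list (4 of 9 lower in each comparison; summed 13079 and 13864 in TDAG51-/-, 24702 and 29037 in the controls) were also lower. Of 8 measured choroid plexus markers, 3 and 2 were at least 2-fold higher and 1 was at least 2-fold lower than TDAG51+/+, with medians of 0.90 and 0.54. Of 8 measured pituitary markers, 1 was at least 2-fold higher than TDAG51+/+ (Cga), and 2 were at least 2-fold lower than TDAG51-/-Tg2 (Prl and Gh), while Cga (0.84) and Tshb (0.40) ran the other way there. The list medians were 0.16 and -0.49. The hormone transcript Prl read 89.7 and 222.7 in TDAG51-/-, 80.2 in TDAG51+/+ and 5192 in TDAG51-/-Tg2. Every marker of the cerebellum, cortex and hippocampus and interneuron lists was well above background in each channel, while 1 striatal, 1 hypothalamic and 2 or 3 hindbrain probes were not. The summed intensities were not scaled between the dyes. For the astrocyte list, with median log2 ratios of 0.07 and 0.04, the sums were 183928 and 184228 in TDAG51-/- (Cy3) and 236377 and 231559 in the controls (Cy5). The genes of the CRH and glucocorticoid systems differ between regions, and the part of these marker differences in the results below was not tested. In tissue RNA, fewer cells of a type and less RNA per cell cannot be told apart.

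**Figure D1:**
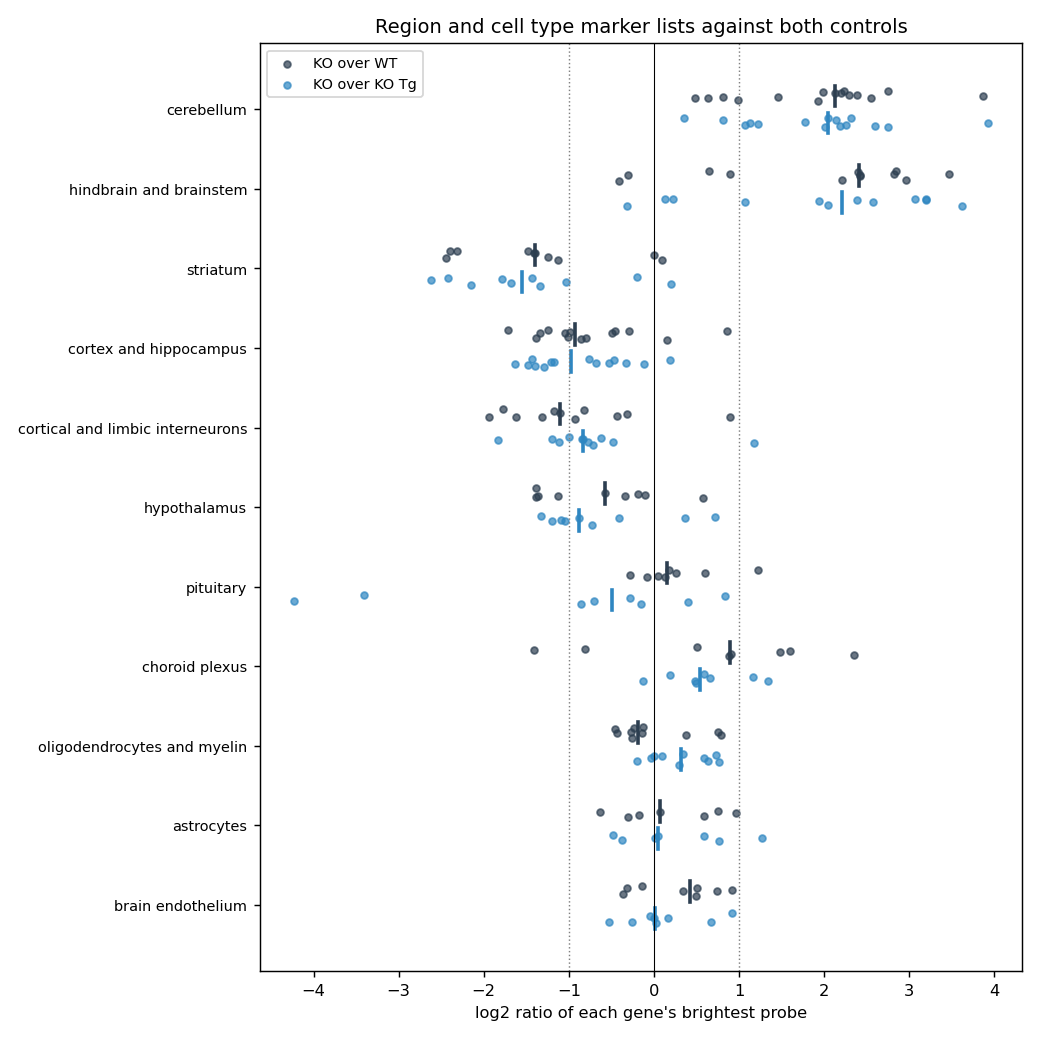
Log2 ratios of marker genes (brightest probe of each gene, well above background in at least 1 channel) for TDAG51-/- over TDAG51+/+ and over TDAG51-/-Tg2, with the median of each list as a bar and dotted lines at 2-fold. Cerebellar and hindbrain lists had medians above 2 on the log2 scale in both comparisons, and the striatal list had medians of -1.40 and -1.55.

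Each gene was represented by its brightest probe kept on both arrays where there was one, and a 2-fold difference was counted. Against TDAG51+/+, 1 of 10 members was at least 2-fold higher in TDAG51-/- (Ucn), where 4.88% of 23401 genes were, and 3 of 10 were at least 2-fold lower (Nr3c2, Fkbp5 and Sgk1), where 4.64% of genes were. Against TDAG51-/-Tg2, 0 of 9 members were at least 2-fold higher, where 4.72% of 22908 genes were, and 2 of 9 were at least 2-fold lower (Ucn3 and Fkbp5), where 3.96% were. Against both controls, 0 of 9 members were higher, where 2.77% of 22540 genes were, and 1 of 9 was lower (Fkbp5), where 1.55% were. By probe, 5 of 20 member probes differed at least 2-fold from TDAG51+/+ in either direction, where 9.32% of all probes did, and 4 of 20 from TDAG51-/-Tg2, where 8.58% did. Probes of 1 gene share a target and are not independent. The median log2 ratio of the members was -0.42 against TDAG51+/+ and 0.01 against TDAG51-/-Tg2, beside 0.01 and 0.01 for all genes.

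**Figure D2:**
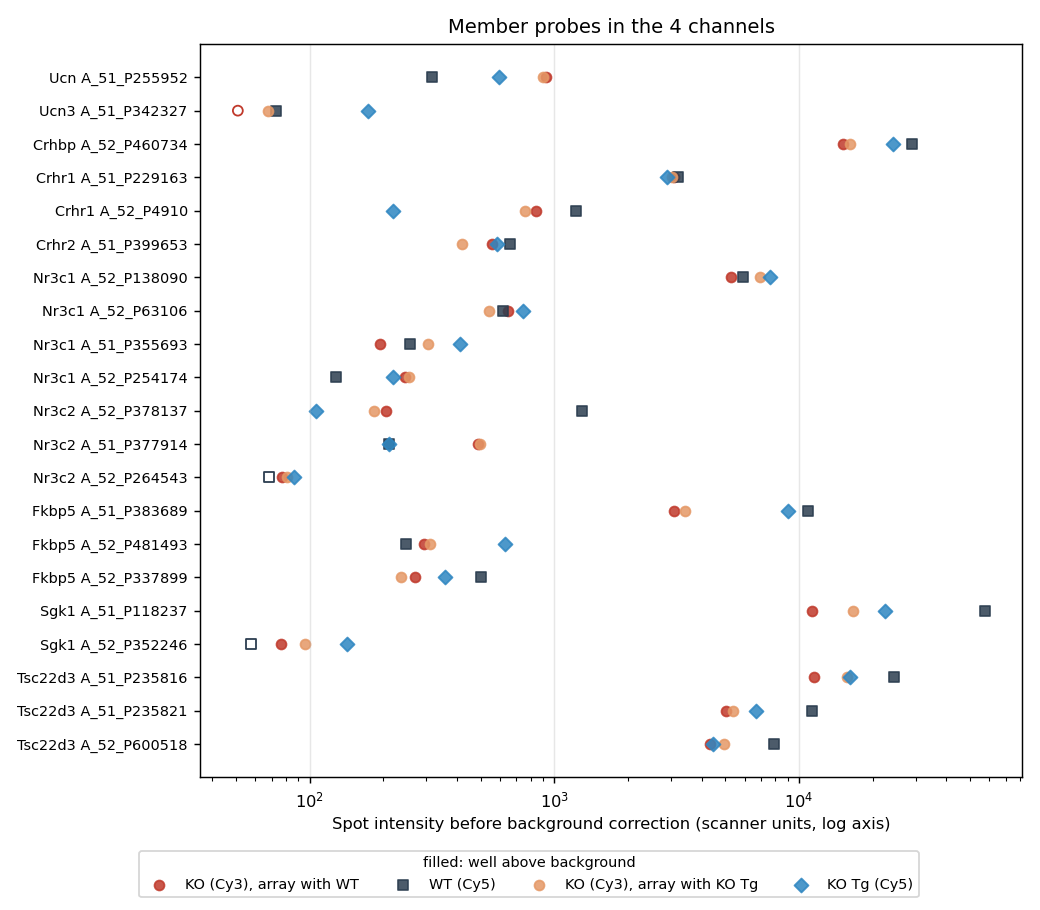
Spot intensities of the 21 member probes on a log axis, in scanner units, in the 4 channels (TDAG51-/- in Cy3 on each array, TDAG51+/+ and TDAG51-/-Tg2 in Cy5), with open symbols where a channel was not well above background. For the brightest probe of Fkbp5, A_51_P383689, the TDAG51-/- points lie left of both controls, while for Fkbp5 A_52_P481493 they lie between the controls. For Sgk1 A_51_P118237 the TDAG51+/+ point at 57584 lies right of the other 3.

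Among the ligands, Ucn, which encodes urocortin, a peptide of the Edinger-Westphal nucleus of the midbrain that binds both CRH receptors, read 928.8 in TDAG51-/- and 317.2 in TDAG51+/+. Its ratio by the single probe A_51_P255952 was 1.67 ± 0.266, or 3.19-fold higher in TDAG51-/-. On the second array, Ucn read 895.4 in TDAG51-/- and 591.5 in TDAG51-/-Tg2, but the scanner marked this spot as an outlier and it was left out. With the spot kept, the log2 ratio was 0.81, under the 2-fold threshold. The knockout readings of both arrays were thus close to each other and above both controls, and the wild type was the lowest of the 4 channels. Ucn3 encodes urocortin 3, a peptide of the hypothalamus and amygdala that prefers Crhr2, and its single probe, A_51_P342327, was close to background. It read 50.9 in TDAG51-/-, which was not well above background, and 72.9 in TDAG51+/+. The log2 ratio was -0.48 ± 0.762, smaller than its error, and the lower bound of 1.30-fold takes no account of that error. On the second array it read 67.9 in TDAG51-/- and 172.9 in TDAG51-/-Tg2, with a log2 ratio of -1.01 ± 0.368, or 2.01-fold lower. The sign was the same in both comparisons, although the ratio against TDAG51+/+ lay within the scanner's error, and TDAG51-/-Tg2 was the highest channel. The size of the ratio depended on the background correction. Against TDAG51-/-Tg2 it ranged from -2.55 in the deposited ratio to -0.99 with median centring, and against TDAG51+/+ from -3.20 in the scanner's ratio to -0.41.

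Crhbp, which encodes the CRH-binding protein of forebrain neurons, was bright in every channel by its single probe, A_52_P460734. It read 15153 in TDAG51-/- and 29014 in TDAG51+/+ on the first array, and 16187 in TDAG51-/- and 24120 in TDAG51-/-Tg2 on the second. The log2 ratios after loess were -0.35 ± 0.206 and 0.01 ± 0.204. Both controls were brighter in Cy5 before normalization, and for bright probes the loess correction was large. With median centring the ratios were -0.79 and -0.39, and without normalization -0.94 and -0.57, so that its direction against TDAG51-/-Tg2 turned with the scaling. Those scalings moved the median of all genes to -0.07 and -0.09, and to -0.23 and -0.27, respectively.

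The 2 probes of Crhr1, the receptor that mediates the pituitary and much of the behavioural response to CRH, did not behave alike. The brighter, A_51_P229163, read 3076 in TDAG51-/-, 3215 in TDAG51+/+, 3029 in TDAG51-/- and 2889 in TDAG51-/-Tg2, and the 4 channels were nearly level. Its log2 ratios were 0.20 ± 0.205 and 0.35 ± 0.206, and without normalization the first was -0.07. The second probe, A_52_P4910, lies 2048 bases from it on the same strand. It read 842.1 in TDAG51-/-, 1230 in TDAG51+/+, 761.3 in TDAG51-/- and 219.8 in TDAG51-/-Tg2. With this probe, TDAG51-/- was 3.81-fold higher than TDAG51-/-Tg2 (log2 ratio 1.93 ± 0.293) and lower than TDAG51+/+ (-0.36 ± 0.208). The low reading was in the TDAG51-/-Tg2 channel alone, since both knockout readings were within 0.16 of each other on the log2 scale. Crhr2, the receptor preferred by urocortin 3, had 1 probe, A_51_P399653, which read 557.5 in TDAG51-/- and 661.6 in TDAG51+/+, and 419.5 in TDAG51-/- and 584.6 in TDAG51-/-Tg2. Its log2 ratios of -0.10 ± 0.205 and -0.26 ± 0.207 were smaller than the 0.40 by which the knockout itself differed between both arrays.

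The glucocorticoid receptor gene Nr3c1 had 4 probes, none of which reached 2-fold after loess. The brightest, A_52_P138090, read 5292 in TDAG51-/- and 5890 in TDAG51+/+ and was marked as an outlier on the first array. On the second it read 6936 in TDAG51-/- and 7575 in TDAG51-/-Tg2, with a log2 ratio of 0.28 ± 0.206, which became -0.13 without normalization. The brightest probe kept on both arrays, A_52_P63106, had log2 ratios of 0.21 and -0.23. The largest difference was that of the dim probe A_52_P254174, with readings of 245.9 and 128.1 and a ratio of 0.90 ± 0.244 against TDAG51+/+, and 255.6 and 219.9 with a ratio of 0.41 against TDAG51-/-Tg2. Against TDAG51+/+ this probe passed 2-fold with offset 0 (1.22), in the scanner's ratio (1.35) and in the deposited ratio (1.36). Probe A_51_P355693 ran the other way at -0.32 and -0.20, and the knockout itself differed by 0.63 between the arrays on it.

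For Nr3c2, the mineralocorticoid receptor gene, which is most abundant in the hippocampus, 3 probes within a short stretch of 1 strand gave 3 different pictures. Probe A_51_P377914 read 489.0 in TDAG51-/- and 211.2 in TDAG51+/+, and 499.3 in TDAG51-/- and 210.7 in TDAG51-/-Tg2. The knockout was 2.37-fold and 2.57-fold higher (log2 ratios 1.24 ± 0.248 and 1.36 ± 0.262), and the 2 controls were level. Probe A_52_P378137, 539 bases downstream, read 206.0 in TDAG51-/-, 1294 in TDAG51+/+, 183.7 in TDAG51-/- and 105.8 in TDAG51-/-Tg2. By this probe the knockout was 5.37-fold lower than TDAG51+/+ (-2.42 ± 0.334) and 1.83-fold higher than TDAG51-/-Tg2 (0.87 ± 0.273). Only the wild type stood high, and it was 10.9-fold above TDAG51-/-Tg2. The third probe, A_52_P264543, lies 598 bases further and stayed near background, between 68.2 and 86.3, with ratios of 0.05 and 0.04. Because the wild-type reading made A_52_P378137 the brightest of the 3 probes, it represents Nr3c2 in the counts above, and the median of the 3 probes was 0.05 against TDAG51+/+.

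**Figure D3:**
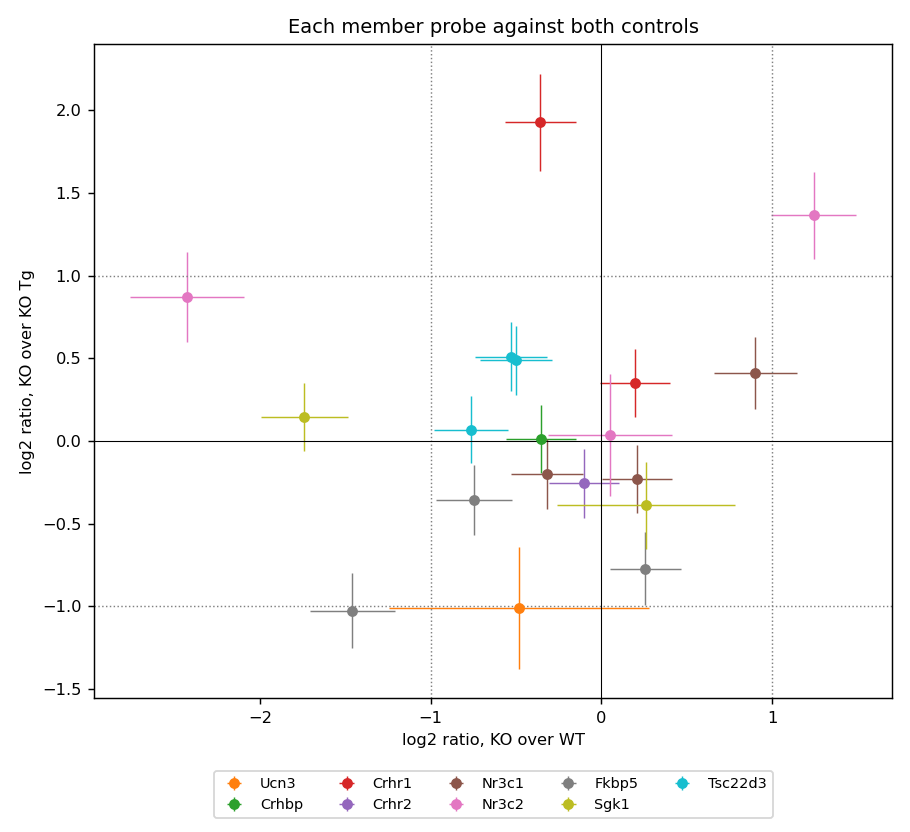
Log2 ratio of each member probe against TDAG51+/+ (horizontal axis) and against TDAG51-/-Tg2 (vertical axis), with the scanner's error for the spot as bars and dotted lines at 2-fold. Ucn and 1 Nr3c1 probe, each left out on 1 array, are not shown, and the 2 axes share the TDAG51-/- group. The 2 Nr3c2 probes with large differences lie at -2.42 and 0.87 and at 1.24 and 1.36.

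Fkbp5 encodes a co-chaperone of Hsp90 that lowers the affinity of the glucocorticoid receptor for its hormone and is itself induced by glucocorticoids. Its brightest probe, A_51_P383689, read 3070 in TDAG51-/- and 10831 in TDAG51+/+, and 3429 in TDAG51-/- and 9029 in TDAG51-/-Tg2. Both knockout readings were below both controls, 2.75-fold and 2.04-fold after normalization (log2 ratios -1.46 ± 0.248 and -1.03 ± 0.226), and the ratio stayed at or below -1.03 with every background correction and scaling applied to that probe. Probe A_52_P337899, which lies 715 bases away, had the same direction with smaller ratios of -0.75 ± 0.222 and -0.36 ± 0.213, from readings of 270.7 and 501.3, and of 235.9 and 356.8. The third probe, A_52_P481493, lies a further 37.4 kb away and read 292.8 in TDAG51-/-, 247.7 in TDAG51+/+, 309.8 in TDAG51-/- and 627.6 in TDAG51-/-Tg2. Here TDAG51-/- was level with or slightly above TDAG51+/+ (0.26 ± 0.209) and below TDAG51-/-Tg2 (-0.77 ± 0.223), and the median of the 3 probes did not reach 2-fold in either comparison.

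Sgk1 encodes a kinase that regulates ion channels and transporters and is induced by glucocorticoids and mineralocorticoids. Probe A_51_P118237 read 11275 in TDAG51-/- and 57584 in TDAG51+/+, and 16576 in TDAG51-/- and 22482 in TDAG51-/-Tg2. The wild type stood above the other 3 channels. TDAG51-/- was 3.34-fold lower than TDAG51+/+ (log2 ratio -1.74 ± 0.255), and against TDAG51-/-Tg2 the ratio was 0.14 ± 0.205, which turned to -0.26 with median centring and to -0.44 without normalization. The level of TDAG51-/-Tg2 was 2.57-fold below TDAG51+/+, and the knockout differed by 0.52 on the log2 scale between the arrays. The other probe, A_52_P352246, designed to a separate cDNA and lying 100.8 kb from the first, read 57.8 to 142.1 and was not well above background in TDAG51+/+. It ran against the first probe, with log2 ratios of 0.26 ± 0.519 and -0.39 ± 0.263, and the former depended on the background correction, at 0.73 with offset 0, 1.92 in the scanner's ratio and 1.71 in the deposited ratio.

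Tsc22d3 encodes a leucine zipper protein (GILZ) that carries much of the anti-inflammatory action of glucocorticoids, and it had 3 bright probes within 1 kb that ran together. A_51_P235816 read 11567 in TDAG51-/- and 24430 in TDAG51+/+, and 15642 in TDAG51-/- and 16134 in TDAG51-/-Tg2. In all 3 probes the wild type was the highest channel. For A_51_P235816, A_51_P235821 and A_52_P600518, in that order, the log2 ratios against TDAG51+/+ were -0.53 ± 0.209, -0.76 ± 0.217 and -0.50 ± 0.210, and those against TDAG51-/-Tg2 were 0.51 ± 0.209, 0.07 ± 0.204 and 0.49 ± 0.209. None reached 2-fold after loess. With median centring the second probe had -1.02 against TDAG51+/+. Without normalization the first and second probes had -1.08 and -1.17 against TDAG51+/+, and the ratios of the 3 probes against TDAG51-/-Tg2 were -0.04, -0.31 and 0.15, beside -0.27 for all genes.

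The 2 controls also differed from each other in some members. The Cy5 levels of both arrays, scaled to a common distribution of average intensity, were compared directly over 33377 probes, 7.90% of which differed at least 2-fold between TDAG51-/-Tg2 and TDAG51+/+. Among 19 member probes, 4 did. Lower in TDAG51-/-Tg2 were Crhr1 A_52_P4910 (5.47-fold), Nr3c2 A_52_P378137 (10.9-fold) and Sgk1 A_51_P118237 (2.57-fold), and Fkbp5 A_52_P481493 was 2.23-fold higher. The brightest probes kept on both arrays of Crhr1, Crhr2, Crhbp, Nr3c1 and Fkbp5 differed by no more than 0.30 on the log2 scale. Over 30120 probes this difference had a robust SD of 0.399, which is a spread between unlike samples and not a measurement error. Besides the probes named above, Nr3c1 A_51_P355693 had 0.51, Nr3c1 A_52_P254174 had 0.56 and Fkbp5 A_52_P337899 had -0.58. The dim probe Sgk1 A_52_P352246, not well above background in TDAG51+/+, had 0.97. The 3 Tsc22d3 probes were lower in TDAG51-/-Tg2 by 0.62 to 0.85. The single Ucn3 probe, close to background, was higher in TDAG51-/-Tg2 by 0.93 (1.91-fold). This comparison crosses arrays and has no replicate.

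The promoters of 9 members were at hand in RefSeq sequence (GRCm38.p6, 250 bases before to 50 after each annotated start), with 6 starts for Sgk1 alone. The glucocorticoid response element was searched as the palindrome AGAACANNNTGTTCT, which reads alike on both strands. It occurred in 3 of 32851 promoters (0.00913%), namely those of Acnat2, Gm35041 and 1 start of Sgk1, where it lies 189 bases before the start. The Sgk1 sequence is printed because this gene had the largest difference of the responsive genes from TDAG51+/+, with the palindrome in capitals.
Sgk1 (chr10:21993640-21993889, plus strand): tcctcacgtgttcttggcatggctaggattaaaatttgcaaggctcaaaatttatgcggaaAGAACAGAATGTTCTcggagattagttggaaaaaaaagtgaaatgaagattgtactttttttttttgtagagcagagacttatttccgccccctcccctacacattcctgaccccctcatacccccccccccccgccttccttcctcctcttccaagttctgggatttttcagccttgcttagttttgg
One arm alone (AGAACA or its complement TGTTCT, each also part of the palindrome) occurred in 19.0% of promoters, among them those of Ucn, Tsc22d3 and 3 starts of Sgk1. The cyclic AMP response element TGACGTCA, also its own complement, occurred in 1.79% of promoters and in 1 member, Ucn, at 44 bases before its start. The Ucn sequence is printed because Ucn was the only member at least 2-fold higher by its brightest probe, with this element in capitals.
Ucn (chr5:31138896-31139145, minus strand): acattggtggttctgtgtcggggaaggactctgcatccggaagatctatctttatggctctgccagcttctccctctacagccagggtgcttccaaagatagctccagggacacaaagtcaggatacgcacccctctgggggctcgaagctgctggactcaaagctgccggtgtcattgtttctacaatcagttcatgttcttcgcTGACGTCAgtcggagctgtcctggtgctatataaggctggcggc
These are matches of letters within short windows, and binding was not measured.

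Genes around the members were taken from 6 lists. Of the CRH family and pituitary-adrenal axis, 6 of 9 genes were measured and none reached 2-fold in either comparison. Of all genes, 4.88% were at least 2-fold higher and 4.64% lower than TDAG51+/+. Against TDAG51-/-Tg2, 4.72% were higher and 3.96% lower. Without normalization 1, the prohormone convertase Pcsk2, was at least 2-fold lower than TDAG51-/-Tg2, beside 2113 of all 22908 genes. Pomc, the precursor of adrenocorticotropic hormone, had ratios of -0.22 and -0.24, Avp, which acts with CRH on the pituitary, -0.37 and -0.56, and Ucn2 was not well above background in any channel. Crh itself was not analysed here. Of 19 genes of CRH receptor signalling (G proteins, adenylyl cyclases, protein kinase A, Creb1, arrestins and receptor kinases), 2 were at least 2-fold lower than TDAG51+/+, where 4.64% of all genes were, and none differed that far from TDAG51-/-Tg2. The 2 genes were Adcy2, an adenylyl cyclase, at -1.63 and -0.90, and Prkar1b, a regulatory subunit of protein kinase A, at -1.04 and -0.54 by its brighter probe A_52_P291736, but at -0.11 and -0.61 by A_51_P185499. The counts moved with the processing. At least 2-fold lower than TDAG51+/+ were 4 genes with median centring and 5 without normalization, beside 1456 and 2112 of all 23401 genes. Lower than TDAG51-/-Tg2 were 2 with offset 0, median centring, the scanner's ratio or the deposited ratio, beside 1515, 1298, 1835 and 1936 of all 22908 genes. Without normalization 7 were, beside 2113. In the higher direction, 1 gene, Adcy8, passed 2-fold against TDAG51+/+ with offset 0, median centring, the scanner's ratio or the deposited ratio, beside 1986, 1100, 2494 and 2424 of all genes. The list had medians of -0.30 and -0.43. In each comparison 13 of 19 genes were below 0, beside 11614 of 23401 and 11213 of 22908 over all genes.

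Of 17 steroid receptor chaperones and coregulators, 1 was at least 2-fold higher than both controls, where 2.77% of all genes were. The gene was Ppp5c, a phosphatase of the receptor's chaperone complex, whose brighter probe A_52_P323669 read 3579 in TDAG51-/- and 590.8 in TDAG51+/+, and 3517 in TDAG51-/- and 579.9 in TDAG51-/-Tg2 (log2 ratios 2.76 and 2.82). Its other probe, A_51_P307243, was nearly level at 0.14 and 0.32. The list medians were -0.09 and -0.10. Among the genes of corticosteroid synthesis, metabolism and transport, 8 and 7 of 10 were measured. Hsd11b1, the enzyme that regenerates active glucocorticoid within cells, was higher in TDAG51-/- than in both controls, reading 9925 in TDAG51-/- against 6119 in TDAG51+/+, and 10725 against 4245 in TDAG51-/-Tg2 (1.11 and 1.73, and 0.70 and 1.33 without normalization). Cyp11a1, the first enzyme of steroid synthesis, was lower than in TDAG51-/-Tg2 by 1 of its 2 probes (-1.46 and -0.01). Of 8 paralogs of the members, Fkbp1a, an immunophilin, was lower in both comparisons by its brighter probe (-1.05 and -1.08), while its second probe, near background, had 0.19 and 0.29. Of all genes, 1.55% were at least 2-fold lower than both controls.

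Of 23 other glucocorticoid-induced genes, 4 were at least 2-fold lower in TDAG51-/- than in TDAG51+/+, where 4.64% of all genes were, and none was higher, where 4.88% were. Against TDAG51-/-Tg2 none reached 2-fold in either direction, where 4.72% of all genes were higher and 3.96% lower. With median centring or without normalization, 7 were lower than TDAG51+/+, beside 1456 and 2112 of all 23401 genes. In the same settings 1, Klf9, was lower than TDAG51-/-Tg2, beside 1298 and 2113 of all 22908 genes. With offset 0, the scanner's ratio or the deposited ratio, 5 were lower and 1, Lcn2, was higher than TDAG51+/+. Of all genes, 1816, 2209 and 2271 were lower and 1986, 2494 and 2424 higher in these settings. The 4 genes lower than TDAG51+/+ as reported are named here after their values were seen. Per1, a clock gene with glucocorticoid response elements, read 685.4 in TDAG51-/- and 4855 in TDAG51+/+, and 697.5 in TDAG51-/- and 740.6 in TDAG51-/-Tg2, with log2 ratios of -2.58 and 0.15. Arrdc2, an arrestin-domain gene, read 241.7 in TDAG51-/- against 879.9 in TDAG51+/+, and 199.8 against 212.2 in TDAG51-/-Tg2, with ratios of -1.68 and 0.07. In both, as in Sgk1, the wild type alone was high. Klf9, a zinc finger transcription factor, was lower in TDAG51-/- in both comparisons (-1.12 and -0.87), and Mertk, a receptor of phagocytic glia, had ratios of -1.16 and -0.40. The medians of the list were -0.25 and 0.12, with 16 and 7 of 23 genes below 0, beside 11614 of 23401 and 11213 of 22908 over all genes. With median centring and without normalization the second median was -0.07 and -0.25, beside -0.09 and -0.27 for all genes. The comparisons share the TDAG51-/- group, and the difference between them was not tested.

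**Figure D4:**
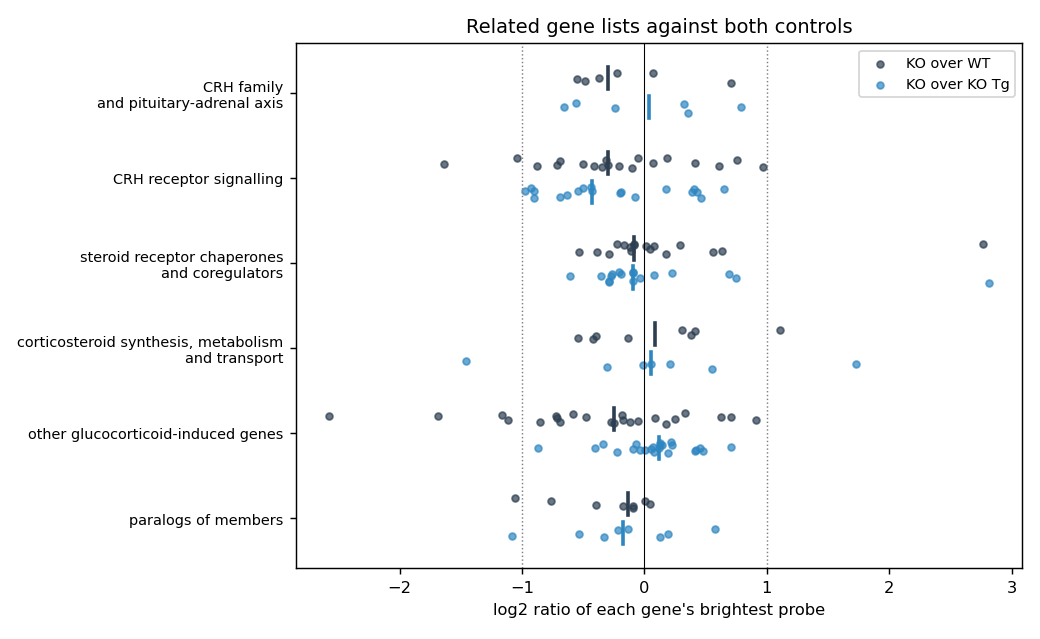
Log2 ratios of the brightest probe of each gene in 6 lists around the members, for TDAG51-/- over TDAG51+/+ and over TDAG51-/-Tg2, with list medians as bars and dotted lines at 2-fold. The glucocorticoid-induced list spread down to -2.58 (Per1) against TDAG51+/+ and lay between -0.87 and 0.71 against TDAG51-/-Tg2.

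**Figure D5:**
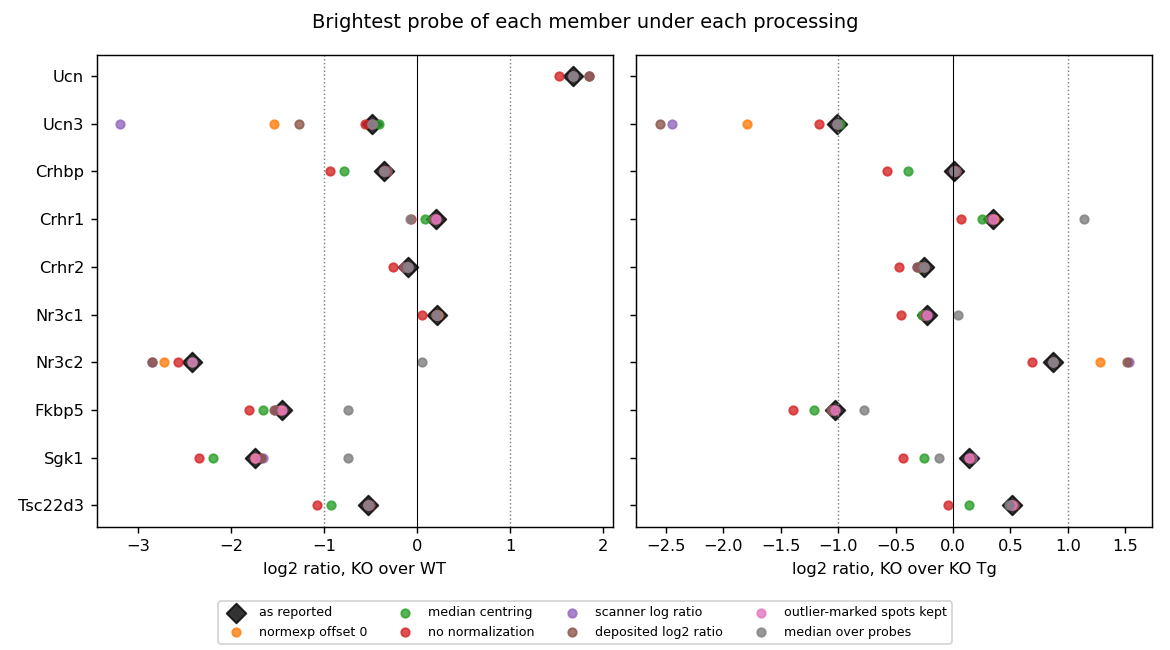
Log2 ratio of the brightest probe of each member under each processing (diamond, as reported; circles, alternatives), against TDAG51+/+ (left) and TDAG51-/-Tg2 (right), with dotted lines at 2-fold. Ucn3 ran from -3.20 to -0.41 against TDAG51+/+, Fkbp5 stayed below 0 in both, and Ucn has no value on the right because its spot was left out.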

How the data were processed

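Brain RNA of 3 genotypes was compared on a pair of two-colour microarrays (Agilent, whole mouse genome). From the scanner software (Feature Extraction 9.5.3.1), the authors deposited the mean and background intensity of the spots, a Cy5 over Cy3 ratio as log10 and an error score of that ratio. They also deposited a table of log2 ratios, Cy3 over Cy5, whose normalization is not given in the sources used here. Background was removed with the normexp method of limma 3.58.1 (R 4.3.3, offset 50), followed by loess normalization (span 0.3), and ratios were turned to TDAG51-/- over the control. Control spots and 375 and 300 spots marked as outliers by the scanner software were left out. Channel levels between the arrays were scaled by Aquantile. Arrays had median intensities of 338.2 and 336.1 (Cy3) and of 363.8 and 385.0 (Cy5), and probes with at least 5 spots had a median SD of 0.063 and 0.065 on the log2 scale. The number of arrays limits the precision.

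A probe was counted where at least 1 channel was well above background. Where the other channel was not, the fold is a lower bound against the higher of the dimmest level called above background and the probe's own. The rule for names was every member probe, Phlda1, genes of the lists that differed 2-fold the same way from both controls, and leading markers. Other genes named from the lists and markers were chosen after their values were seen. Gene names came from the arrays and from RefSeq (GRCm38.p6), in which 32719 of 41174 probes were matched, 22951 by accession. The members and lists were chosen with earlier results of these data known. The method was tested on simulated data. Alternatives were offset 0, median centring, no normalization, the scanner's ratio, the deposited ratio, stricter and looser background filters, other probe rules and, added after seeing the data, outlier spots kept. Further steps used Python 3.11.15 (pandas 2.3.3, numpy 2.4.6, matplotlib 3.10.9).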

Additional observations from a re-analysis of the deposited data

Results flagged for a closer look

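The share of all probes that meet the following rule was not computed, so whether its counts are unusual for the members cannot be told. For 6 member probes, the TDAG51-/- sample lay on opposite sides of the 2 controls by more than the scanner's error in each comparison. This held for 7 probes with offset 0, for 6 with the scanner's or the deposited ratio, for 4 with median centring and, without normalization, for 2 (Nr3c2 A_52_P378137 and Crhr1 A_52_P4910, which were among them under each of these settings). The difference between the comparisons was not tested, since each rests on 1 array. Nr3c2 A_52_P378137 had a log2 ratio of -2.42 with TDAG51+/+ as control and of 0.87 with TDAG51-/-Tg2. In the same order, Crhr1 A_52_P4910 had -0.36 and 1.93. Tsc22d3 had -0.53 and 0.51 by A_51_P235816, and -0.50 and 0.49 by A_52_P600518. Fkbp5 A_52_P481493 ran in the other order, at 0.26 and -0.77, as did Nr3c1 A_52_P63106, at 0.21 and -0.23. The Nr3c1 values were only just beyond their errors of 0.205 and 0.206. The rule takes no account of how far the knockout itself moved between the arrays. That log2 difference, second over first array, was 0.42 for Tsc22d3 A_51_P235816, 0.14 for Tsc22d3 A_52_P600518 and -0.25 for Nr3c1 A_52_P63106. For the flagged probes of Nr3c2, Crhr1 and Fkbp5 it was -0.15, -0.16 and 0.12.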

How the results depend on the processing

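Of the 19 log2 ratios of the members' brightest probes, 13 kept their sign under the 7 alternatives that give a ratio (background filters and the rule of any 1 probe were applied to the counts only) and 6 changed it under at least 1. Of 133 alternative values, 96 lay within the scanner's error of the reported one and 36 beyond it, and 1 turned the sign of a 2-fold value, that of Nr3c2 against TDAG51+/+, which was 0.048 as the median of its 3 probes. The number of members at least 2-fold higher than TDAG51-/-Tg2, 0 as reported, was 1 with offset 0, the scanner's ratio or the deposited ratio (Nr3c2 in each), 1 as the median over probes (Crhr1) and 2 where any 1 probe was enough. Among all 22908 genes, 1081 were higher as reported. With offset 0, the scanner's ratio and the deposited ratio, 1900, 2397 and 2260 were. Members at least 2-fold lower than both controls, 1 as reported, were 2 with offset 0, the scanner's ratio or the deposited ratio, where Ucn3 joined Fkbp5, and 0 as the median over probes. Members at least 2-fold lower than TDAG51-/-Tg2, 2 as reported, were 1 with median centring and 1 as the median over probes. Among all 22908 genes, 908 were lower as reported and 1298 with median centring. Members at least 2-fold lower than TDAG51+/+, 3 as reported, were 4 with offset 0, the scanner's ratio or the deposited ratio (Ucn3 joined), 4 without normalization (Tsc22d3 joined) and 0 as the median over probes. Among all 23401 genes, 1085 were lower as reported. With offset 0, the scanner's ratio, the deposited ratio and no normalization, 1816, 2209, 2271 and 2112 were. Where any 1 probe was enough, 2 members were at least 2-fold higher than TDAG51+/+ and 1 (Nr3c2) than both controls. For the probe rules, and for both controls together, the share of all genes under the alternatives is not given here. Other than by the choice of probe, the cause of the changes in the member counts was not tested. Keeping outlier spots changed none of the member counts. No paired analysis was possible because each comparison holds 1 array. Values near background, such as those of Ucn3, are limited by signal over background.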
